A study of Mus musculus with 15 samples.

Results

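The genes described here encode enzymes that conjugate or hydrolyse foreign and endogenous compounds in the mouse colon, together with the receptor that controls many such enzymes. They were chosen by gene symbol: Ugt2b5, Ugt2b34 and Ugt2b36 (UDP-glucuronosyltransferases), Ces1d, Ces1g, Ces2c and Ces2e (carboxylesterases), Ephx1 and Ephx2 (epoxide hydrolases) and Nr1i2 (the pregnane X receptor, PXR). Every probe set of the array whose annotation gives 1 symbol equal to a listed one was taken. Of the 10 listed genes 9 had such a probe set, 13 probe sets in all, and Ces2c was not analysed here. All 13 probe sets and all 9 genes passed the filter on low signal, out of 9257 tested genes of 18194 and 17910 tested probe sets of 45101.

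The mice were 11-week-old male C57BL/6 animals, an inbred laboratory strain. The control group (6 mice analysed; control replicate 5 was not analysed here) was fed a diet rich in fat (40% of energy) and low in calcium. The heme group (9 mice) was given that diet plus heme, the iron-containing pigment of red meat, at 0.5 µmol per g, and both diets were given for 14 days. Each mouse gave 1 RNA sample from scraped colon, hybridised to 1 Affymetrix mouse expression array. The diet is the single difference the labels give between the groups, so the comparison asks how 14 days of dietary heme went with the expression of these genes.

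Glucuronosyltransferases attach glucuronic acid, taken from UDP-glucuronic acid, to hydroxyl and carboxyl groups of bile acids, steroids, phenols and drugs, which makes them more soluble and easier to excrete. Carboxylesterases split ester, amide and thioester bonds in lipids and drugs. Epoxide hydrolases add water to epoxides: the microsomal enzyme, encoded by Ephx1, acts mainly on foreign epoxides, and the soluble enzyme, encoded by Ephx2, on epoxides of fatty acids. In the gut epithelium these enzymes form part of the barrier to compounds from the lumen. PXR is a nuclear receptor that binds bile acids and drugs, pairs with RXR and activates genes of this kind.

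The arrays had similar medians, from 3.11 to 3.24 on the log2 scale. All 9 markers of mature colonocytes were tested, with 2 higher and 3 lower in heme mice, and their summed signal was 85821 to 88567 in controls and 86567 to 95223 in heme mice. Some other lists of cell markers differed between the groups, where over all tested genes 27.2% were higher and 26.4% lower. Of 5 small intestinal enterocyte markers on the array 2 were tested and both were higher in heme mice, Rbp2 by 2.38 ± 0.23 (log2, SE; adjusted p = 1.10e-06, limma) and Alpi by 1.33 ± 0.21 (adjusted p = 9.69e-05). The summed signal of that list was 581 to 1760 in controls and 2027 to 3404 in heme mice, and Lct was not over the floor on any array. All 4 enteroendocrine markers were lower, with a summed signal of 4145 to 8483 in controls and 1505 to 2206 in heme mice. Of 6 goblet cell markers 4 were lower, and both tested markers of the proximal colon were lower. The 4 tested fibroblast markers, the 3 distal colon markers and the 1 tested B or plasma cell marker were not called. Nor were 3 of 4 tested adipocyte markers. The 3 endothelial and 3 T cell markers were not over the floor on any array. The part of these lists in the results below was not tested. The smooth muscle and distal Hox levels described next also served as covariates. Control mice 2 and 4 stood apart before any comparison of the genes below. Of 7 smooth muscle markers 4 were tested and all 4 were lower in heme mice. Their mean log2 level was 9.76 in control mouse 2, 6.08 in control mouse 4, 7.26 to 7.63 in the other controls and 4.88 to 6.62 in heme mice. Only control mouse 4 lay within the heme range, so adjusting for this level cannot separate it from diet. The mean of 3 distal Hox genes was 3.19 in control mouse 4, 6.81 to 8.94 in the other controls and 7.78 to 8.63 in heme mice. These scrapings are bulk samples, so fewer cells of a type and less RNA per cell cannot be told apart.

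The 3 Ugt2b promoters are shown because Ugt2b34 was called in the comparison of diets and the other listed Ugt2b genes, Ugt2b5 and Ugt2b36, were not. Their relative Ugt2b35, which is not a listed member, was also called lower, as given below. Ugt2b5, Ugt2b34 and Ugt2b36 had positive correlations with each other among the control mice, as given below. That of Ugt2b5 with Ugt2b34 did not pass the adjustment (exact permutation, adjusted p = 0.0905). The range of control values was 0.30 on the log2 scale for Ugt2b34, against 1.35 for Ugt2b5 and 1.29 for Ugt2b36. A difference in calls is not a difference in change. Tested directly, the change of Ugt2b5 differed from that of Ugt2b36 (-0.41, exact permutation, adjusted p = 0.0042). It was not told apart from that of Ugt2b34 (0.283, exact permutation, adjusted p = 0.101). The change of Ugt2b34 differed from that of Ugt2b36 (-0.693, exact permutation, adjusted p = 0.0028). A link between these windows and the changes was not tested. Each window holds the 250 bases upstream of the annotated start in RefSeq (GRCm38.p6), 5′ to 3′ on the strand of the gene, with the nuclear receptor motif in capitals. The Ugt2b5 window is chr5:87140341-87140590, that of Ugt2b36 is chr5:87092556-87092805 and that of Ugt2b34 is chr5:86906938-86907187, all on the minus strand.
Ugt2b5: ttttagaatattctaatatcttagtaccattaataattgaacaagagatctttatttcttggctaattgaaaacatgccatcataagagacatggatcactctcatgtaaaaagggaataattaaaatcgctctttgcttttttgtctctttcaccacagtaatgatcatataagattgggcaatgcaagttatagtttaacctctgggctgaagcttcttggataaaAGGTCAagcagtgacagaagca
Ugt2b36: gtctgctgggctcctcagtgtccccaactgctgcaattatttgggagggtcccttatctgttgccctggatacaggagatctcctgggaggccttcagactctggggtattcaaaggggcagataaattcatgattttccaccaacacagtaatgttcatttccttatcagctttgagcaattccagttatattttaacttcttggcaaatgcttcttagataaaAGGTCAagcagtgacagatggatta
Ugt2b34: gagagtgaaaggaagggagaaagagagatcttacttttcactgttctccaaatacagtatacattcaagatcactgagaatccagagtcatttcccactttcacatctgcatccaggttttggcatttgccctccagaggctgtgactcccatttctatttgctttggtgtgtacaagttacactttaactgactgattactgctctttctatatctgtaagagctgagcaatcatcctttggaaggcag
The capitals mark AGGTCA, the core letters of a nuclear receptor site. It began 22 bases before the start in Ugt2b5 and 25 bases before it in Ugt2b36, inside a run of 24 bases shared by both, gataaaAGGTCAagcagtgacaga. Ugt2b34 had no match in its window. The longest run that Ugt2b34 shared was 9 bases with Ugt2b5 and 8 bases with Ugt2b36. Aligned over the whole window, Ugt2b5 and Ugt2b36 had 60.2% identical positions, against 50.7% for Ugt2b5 with Ugt2b34 and 50.2% for Ugt2b34 with Ugt2b36. AGGTCA, on either strand, stood in 14.0% of the 32851 promoter windows of the same length. The other motifs searched on both strands were AGTTCA (11.8% of all windows), the antioxidant response core TGACNNNGC (10.2%) and GTTAAT (6.43%). None of these 3 was found in the 8 listed genes that had a window, and AGGTCA was found in Ugt2b5 and Ugt2b36 alone among them. A match of a few letters is a description of the window and not a binding site.

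Of the 9 genes, Ces1g and Ephx2 were higher in heme mice, Ephx1 and Ugt2b34 were lower, and 5 did not pass the test (limma, Benjamini-Hochberg adjusted p of at most 0.05 over all tested genes). Over all genes 53.6% were called, 27.2% as higher and 26.4% as lower, so 4 called genes of 9 is near the background of this comparison. The median change of the 9 genes was 0.01 on the log2 scale, and that of all tested genes was -0.01. Every change called here was below 1 on the log2 scale. Ephx1 was the one gene of the 9 whose groups did not overlap, all heme mice lying below all controls, an arrangement found in 8.93% of all tested genes, while 11.2% had all heme mice above all controls. Over all probe sets 50.9% were called, and 5 of the 13 probe sets of these genes were.

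**Figure D1:**
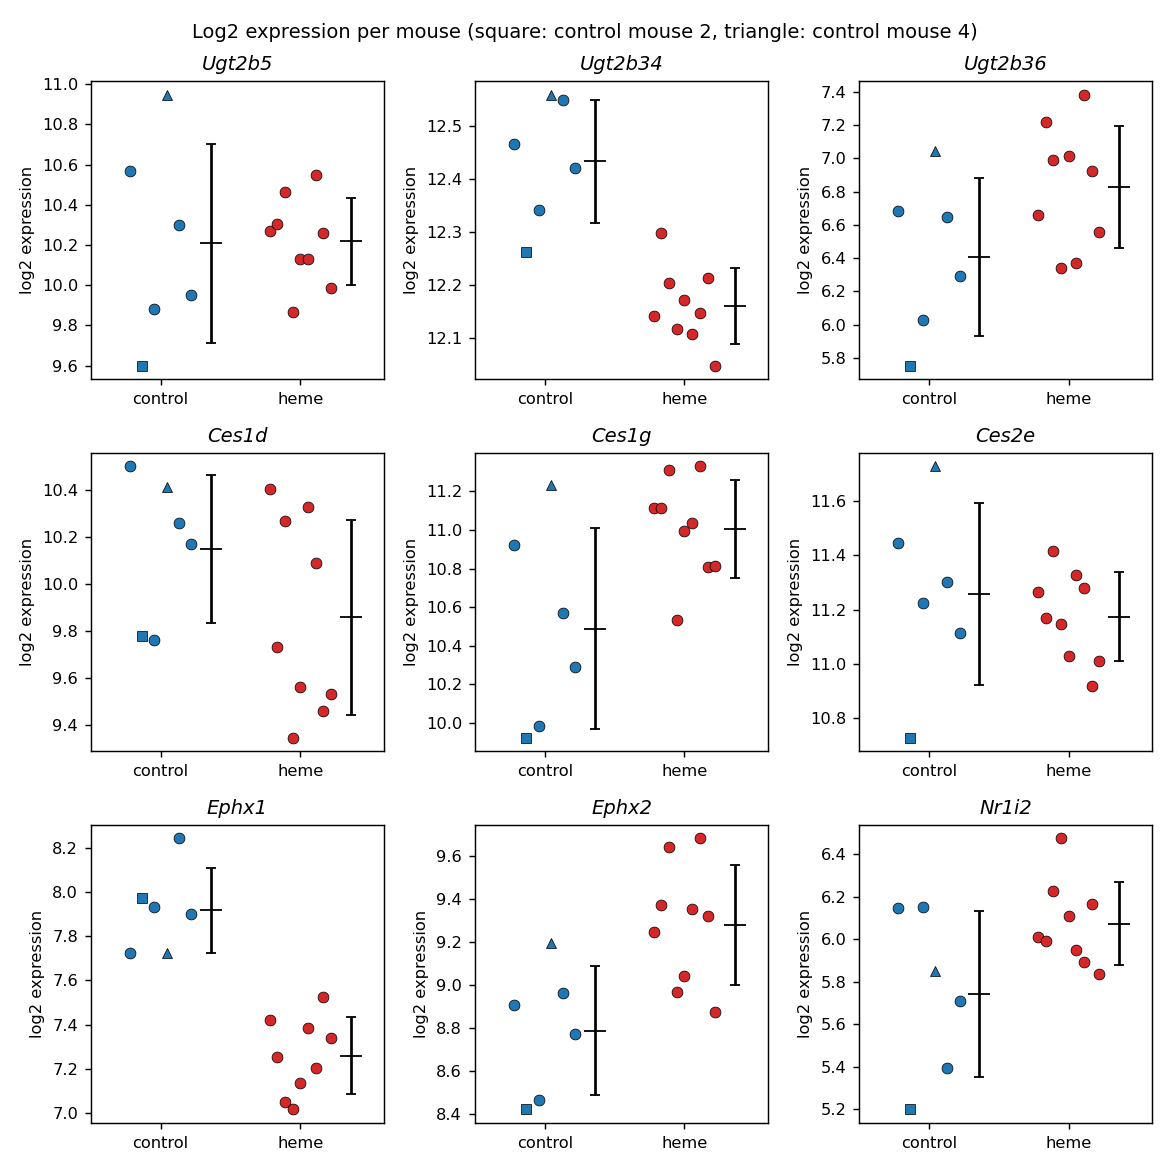
Log2 expression of each of the 9 genes in each mouse, by the probe set that stands for the gene, with the mean and SD beside the points (blue 6 control mice, red 9 heme mice; each panel has its own scale). Ephx1 is the single panel without overlap, from 7.72 upward in controls and up to 7.52 in heme mice, and the square and triangle show that control mice 2 and 4 hold the lowest and highest control values of Ugt2b5, Ugt2b34, Ugt2b36, Ces1g, Ces2e and Ephx2.

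Among the glucuronosyltransferases, Ugt2b34 fell slightly and the other members were not called. Ugt2b34 had its lowest, median and highest control values at 12.26, 12.44 and 12.56 on the log2 scale, and its heme values at 12.05, 12.15 and 12.30. In 8 of 9 heme mice it lay below every control, and the groups overlapped through heme mouse 2 and control mouse 2. It fell by 0.27 ± 0.06 (log2, SE; adjusted p = 7.81e-04, limma). Its further probe set fell by 0.39 ± 0.08 (adjusted p = 9.25e-04), with 5 of 9 heme mice below all controls. Ugt2b5, an enzyme of steroid and phenol glucuronidation, ranged from 9.60 through a median of 10.13 to 10.95 in controls and from 9.87 through 10.26 to 10.55 in heme mice. The heme values lay inside the span of the control values. Its difference was 0.01 ± 0.17 with a 95% interval from -0.35 to 0.37 (adjusted p = 0.966). A change of up to about that size in either direction is therefore not excluded. Ugt2b36 gave 5.75, 6.47 and 7.04 in controls and 6.34, 6.92 and 7.38 in heme mice. It had a difference of 0.42 ± 0.20 with an interval from -0.0044 to 0.84 (adjusted p = 0.0876), and 2 of 9 heme mice were above all controls. Without control mouse 4 that gene passed the test at 0.55 (adjusted p = 0.0271). The Ugt2b genes are close relatives of each other, and a probe set of one may also measure another.

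Among the carboxylesterases, Ces1g rose, while Ces1d and Ces2e were not called. Ces1g, a lipid-handling esterase of liver and intestine, had a control mean of 10.49 ± 0.52 (SD, n = 6) and a heme mean of 11.01 ± 0.26 (SD, n = 9). Its lowest, median and highest values were 9.92, 10.43 and 11.24 in controls and 10.53, 11.04 and 11.33 in heme mice. The groups overlapped: 2 of 9 heme mice were above all controls, and control mouse 4 held the highest control value. The rise was 0.52 ± 0.19 (log2, SE; adjusted p = 0.0277, limma), or 1.43-fold. It did not pass the test without control mouse 2 (0.40, adjusted p = 0.0716), without control mouse 3 (0.42, adjusted p = 0.0741) or without control mouse 7 (0.48, adjusted p = 0.0604). Without control mice 2 and 4 together it was 0.56 (adjusted p = 0.0114). Adjusted for the mean smooth muscle level of each mouse it was 0.11 (adjusted p = 0.762). That level differs between the diets, so this fit cannot separate it from diet.

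Ces1d, a triglyceride hydrolase also abundant in liver and fat tissue, gave 9.76, 10.22 and 10.50 in controls and 9.35, 9.73 and 10.41 in heme mice. On this probe set 5 of 9 heme mice were below every control and 4 lay inside the control range. The difference was -0.29 ± 0.18 (interval -0.68 to 0.10, adjusted p = 0.200). Its further probe sets had differences of -0.21 ± 0.14 (adjusted p = 0.234) and -0.45 ± 0.20 (adjusted p = 0.0653), with 2 and 4 of 9 heme mice below all controls. All 3 probe sets had the same sign and none was called. The summed signal of the adipocyte markers was 578 to 2724 in controls and 494 to 3646 in heme mice. Of 4 tested adipocyte markers Cidec was higher (2.86 ± 0.28, adjusted p = 1.14e-06, limma) and 3 were not called. Among 6 hepatocyte markers 4 were not over the floor on any array. Of the 2 tested, Tat was lower (-2.24 ± 0.22, adjusted p = 1.30e-06, limma) and Ttr was not called. The part of both lists in the Ces1d values was not tested. Ces2e, an intestinal carboxylesterase, gave 10.73, 11.26 and 11.73 in controls and 10.92, 11.17 and 11.42 in heme mice. Its difference was -0.08 ± 0.12 with an interval from -0.34 to 0.17 (adjusted p = 0.586), and the heme values lay inside the span of the controls.

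The epoxide hydrolases moved in opposite directions. Ephx1 gave 7.72, 7.92 and 8.24 as the lowest, median and highest control values and 7.02, 7.25 and 7.52 in heme mice, with no overlap. It fell by 0.66 ± 0.09 (log2, SE; adjusted p = 3.57e-05, limma), a level 1.58-fold lower, and lay below all controls in 9 of 9 heme mice. Ephx2 gave 8.42, 8.84 and 9.19 in controls and 8.87, 9.32 and 9.68 in heme mice. In 6 of 9 heme mice it was above every control, and the lowest heme mice overlapped the upper controls. It rose by 0.49 ± 0.14 (adjusted p = 0.00864), or 1.41-fold. Leaving out any single mouse changed neither call. Adjusted for the mean smooth muscle level of each mouse, the Ephx2 difference was 0.22 (adjusted p = 0.425) and that of Ephx1 -0.47 (adjusted p = 0.0123). Such a fit cannot separate that level from diet.

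Nr1i2, which encodes PXR, was not called on either of its probe sets. The probe set that stands for the gene gave 5.20, 5.78 and 6.15 in controls and 5.84, 6.01 and 6.47 in heme mice. Every heme mouse was above the lower 3 controls, and 3 of 9 were above all controls. The difference was 0.33 ± 0.14 (interval 0.03 to 0.63, adjusted p = 0.0586). The further probe set had a difference of the other sign, -0.09 ± 0.13 (adjusted p = 0.597). The probe sets therefore gave no common direction for this gene, and the mean of both was 0.12 (adjusted p = 0.429). The first probe set passed the test without control mouse 1, without control mouse 3 or without heme mouse 9. It also passed it after median centring (0.37, adjusted p = 0.0440) and quantile normalization (0.42, adjusted p = 0.0203).

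**Figure D2:**
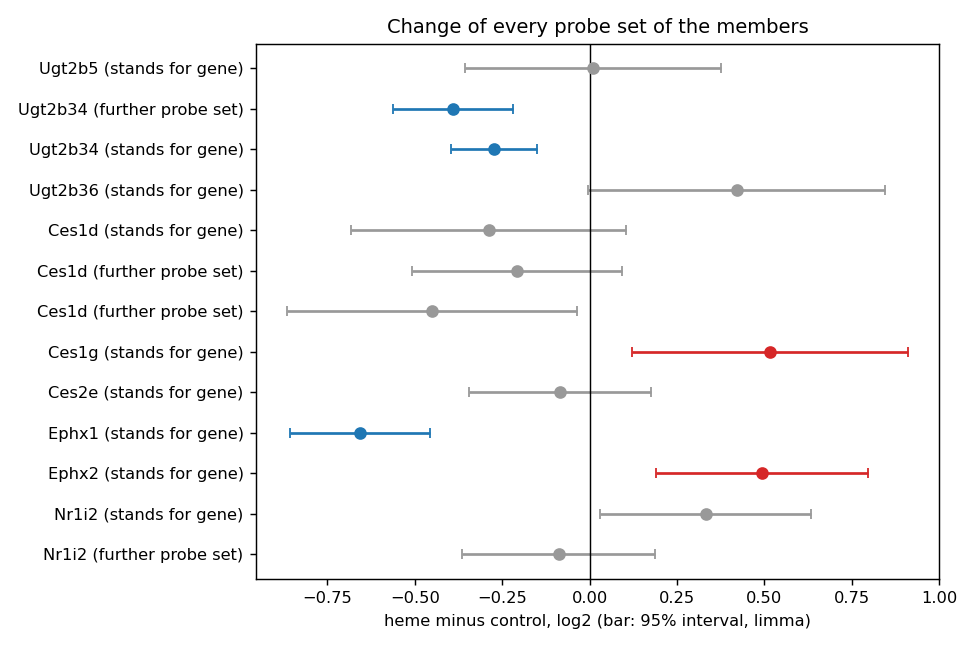
Heme minus control difference (log2) for each of the 13 probe sets with its 95% interval from limma (red called higher, blue called lower, grey not called). Both Ugt2b34 probe sets lie below 0, all 3 of Ces1d lie below 0 without being called, and the probe sets of Nr1i2 lie on opposite sides of 0.

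The differences between relatives were tested directly, as the difference of 2 genes within each mouse compared between the groups by a two-sided exact permutation test over 5005 splits (7 pairs, Benjamini-Hochberg adjusted over them). Ephx1 relative to Ephx2 changed by -1.15 on the log2 scale (exact permutation, adjusted p = 0.0014), with the smallest raw p that the splits allow, 0.0002. Ces1d relative to Ces1g changed by -0.806 (exact permutation, adjusted p = 0.00186), and Ces1g relative to Ces2e by 0.601 (exact permutation, adjusted p = 0.00186). Within the Ces1 subfamily, therefore, the response of Ces1g differed from that of Ces1d, although Ces1d itself was not called. Ugt2b34 relative to Ugt2b36 changed by -0.693 (exact permutation, adjusted p = 0.0028), and Ugt2b5 relative to Ugt2b36 by -0.41 (exact permutation, adjusted p = 0.0042). The pairs that did not pass were Ugt2b5 with Ugt2b34 (0.283, adjusted p = 0.101) and Ces1d with Ces2e (-0.205, adjusted p = 0.166), both by the exact permutation test.

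The other genes of the 3 families were taken from a list made for this comparison. Of 9 tested genes for glucuronosyltransferases and their cofactor, 4 were higher, 2 lower and 3 not called. Over all tested genes 27.2% were higher and 26.4% lower. The median change of the list was 0.29. The 4 that rose do not themselves conjugate. Ugp2, which makes UDP-glucose, rose by 0.46 ± 0.07 (log2, SE; adjusted p = 5.45e-05, limma) and was above all controls in 9 of 9 heme mice. Ugdh, which oxidises UDP-glucose to UDP-glucuronic acid, rose by 0.21 ± 0.08 (adjusted p = 0.0359). Slc35d1, which carries UDP-sugars into the endoplasmic reticulum, rose by 0.40 ± 0.15 (adjusted p = 0.0301). Gusb, the lysosomal enzyme that removes glucuronic acid, rose by 0.38 ± 0.12 (adjusted p = 0.0129). The calls of Ugdh and Slc35d1 were lost without any 1 of control mice 2, 3 and 7 or heme mice 2 and 7, and that of Ugdh also without heme mouse 3. Ugt2b35 fell by 0.43 ± 0.10 (adjusted p = 0.00142), with 7 of 9 heme mice below all controls, and Ugt8a had a difference of 0.29 ± 0.21 (adjusted p = 0.271). The Ugt1a genes share most of their exons, and the 3 probe sets over the floor each carry 8 symbols, so they were kept out of the gene counts. These had differences of 0.10 ± 0.07, -0.02 ± 0.05 and 0.15 ± 0.08, none of them called (adjusted p = 0.262, 0.755 and 0.130).

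Of 12 tested carboxylesterases and related esterases, 4 were higher, 4 lower and 4 not called. The shares over all tested genes were 27.2% higher and 26.4% lower. The median of the esterase list was 0.01. The falls were larger than the rises. Ces2a, an abundant intestinal carboxylesterase, gave 11.91, 12.17 and 12.52 in controls and 10.46, 10.90 and 12.09 in heme mice. It fell by 1.16 ± 0.19 (log2, SE; adjusted p = 1.13e-04, limma), and 8 of 9 heme mice were below all controls. Ces2b fell by 1.05 ± 0.14 (adjusted p = 1.88e-05), below all controls in 9 of 9 heme mice. Ces1e fell by 1.09 ± 0.18 (adjusted p = 1.26e-04), below all controls in 6 of 9. Bche, which encodes butyrylcholinesterase, fell by 2.18 ± 0.20 (adjusted p = 6.20e-07), the largest fall of the list, and lay below all controls in 9 of 9 heme mice. Aadac, a microsomal deacetylase, rose by 0.53 ± 0.12 (adjusted p = 0.00133). Ces2g rose by 0.82 ± 0.30 (adjusted p = 0.0319) and Pon2, a lactonase, by 0.23 ± 0.08 (adjusted p = 0.0218). Ces2g missed the threshold when control mouse 1, control mouse 4, heme mouse 4 or heme mouse 9 was left out, and Pon2 when control mouse 2 or 7 was. Ces1f had a difference of 0.35 ± 0.17 (adjusted p = 0.0941) and Pon3 of 0.11 ± 0.07 (adjusted p = 0.238). Of 4 tested epoxide hydrolases, Ephx2 was higher and Ephx1 lower. Ephx4 had a difference of -0.31 ± 0.26 (adjusted p = 0.332) and Lta4h, which makes leukotriene B4, of -0.08 ± 0.07 (adjusted p = 0.385).

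**Figure D3:**
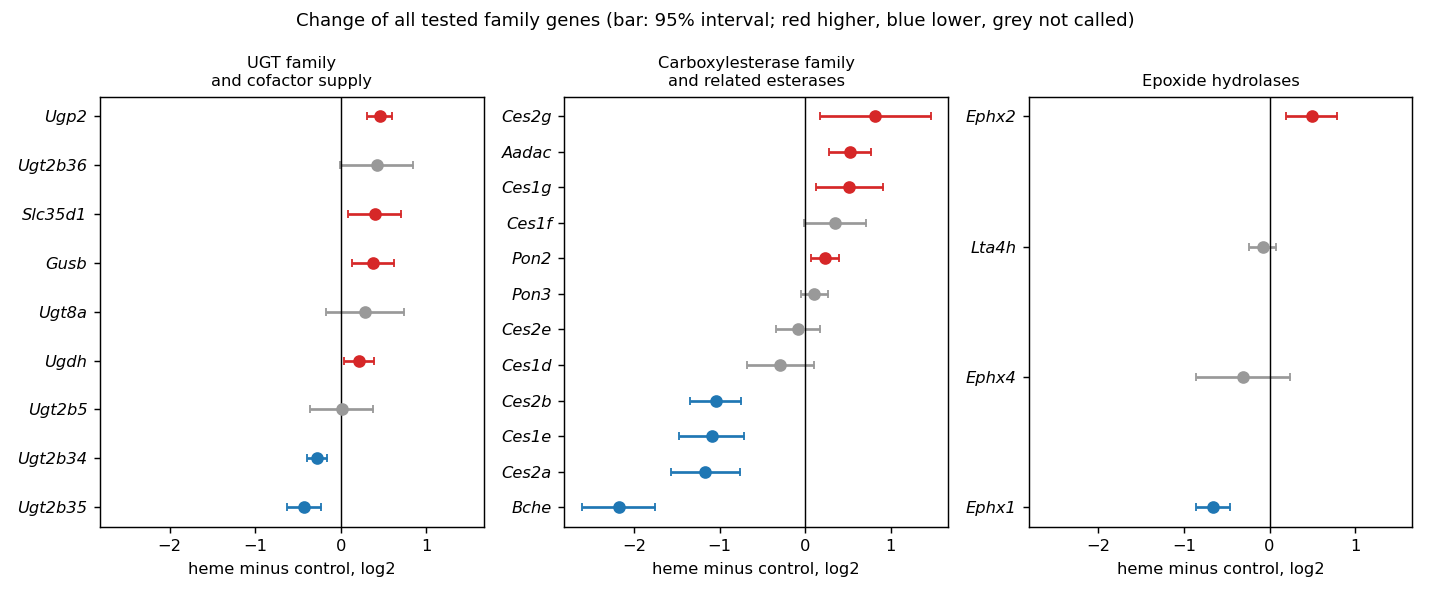
Heme minus control difference (log2, limma, 95% interval) of every tested gene of the 3 families (red called higher, blue called lower, grey not called). Bche at -2.18 and the esterases Ces2a, Ces1e and Ces2b near -1 lie to the left, while the highest esterase is Ces2g at 0.82 with a wide interval.

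These counts changed when the mean level of the smooth muscle markers, which itself differs between the groups, was added to the fit. With it, 2 glucuronidation genes were higher and 1 lower, 1 esterase was higher and 5 lower, and 0 epoxide hydrolases were higher and 1 lower. Over all genes 1766 were then higher in place of 2516, and 1738 lower in place of 2445. The part of smooth muscle in these counts was not tested. Without control mice 2 and 4 the counts were 4 and 2, 3 and 4, and 1 and 1.

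Among 12 tested receptors and partners that act with PXR or beside it, 0 were higher and 9 were lower, against 26.4% of all genes lower, and the median was -0.42. The transcript of Ppargc1a, a coactivator of nuclear receptors, fell by 1.51 ± 0.11 (log2, SE; adjusted p = 5.21e-08, limma). That of Ppara, the fatty acid receptor, fell by 0.59 ± 0.22 (adjusted p = 0.0309), and that of Vdr, the vitamin D receptor, fell by 0.57 ± 0.09 (adjusted p = 7.91e-05). These were the 3 largest falls of the list. Ppara missed the threshold when 1 of control mice 1, 4 and 6 or of heme mice 4 and 8 was left out. Nr1i2 was the member of that list with the highest difference, and it was not called. Of 16 PXR target genes on the array 9 were tested, and the others did not pass the filter on low signal. Of the 9 tested, 5 were higher and 2 lower, against 27.2% and 26.4% of all genes, with a median of 0.54. Among the 5 higher ones, 1 is also counted with the Nrf2 enzymes below. The activity of PXR was not tested. Aldh1a1, a retinal dehydrogenase, rose by 0.97 ± 0.14 (adjusted p = 3.63e-05), and Alas1, the first enzyme of heme synthesis, rose by 0.87 ± 0.10 (adjusted p = 5.25e-06), whereas Ces2a fell as given above. Of 11 tested enzymes under the oxidative stress factor Nrf2, 10 were higher and 1 lower, against the same shares of all genes. Their median was 2.05. The lower one was Ephx1. Gsta3, a glutathione transferase, rose by 3.64 ± 0.23 (adjusted p = 1.72e-08), and Cbr3, a carbonyl reductase, by 3.59 ± 0.08 (adjusted p = 2.22e-14). Hmox1, which degrades heme, was called higher but had all controls under the floor, so no size is given. It passed the filter on low signal through the heme mice alone. The 10 higher genes and the median of 2.05 include it.

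The genes also differed in how they varied between mice of 1 group. Over the 72 relations of 2 genes within a group, 36 per group, the median Pearson r was 0.853 in controls and 0.157 in heme mice, and r was positive in 28 and 23 of them. Control mice 2 and 4 stood apart in smooth muscle level (9.76 and 6.08), as given above. They held the lowest and highest control values of Ugt2b5, Ugt2b34, Ugt2b36, Ces1g, Ces2e and Ephx2. The part of tissue makeup in these r was not tested. Pairs of other genes were not measured within each group. The r values and counts here are therefore not shown to be particular to the listed genes. Ugt2b5 and Ces1g rose and fell together, with r = 0.985 over 6 controls (exact permutation p = 0.00139, adjusted p = 0.0333) and Spearman rho = 1.0 (exact permutation p = 0.00278, adjusted p = 0.0443). Over 9 heme mice r was 0.899 (exact permutation p = 0.00121, adjusted p = 0.0333) and rho 0.883 (exact permutation p = 0.00308, adjusted p = 0.0443). Without the 2 mice farthest from the median of Ugt2b5, r was 0.974 in the 4 controls left and 0.754 in the 7 heme mice left. Every r given below without the 2 farthest mice rests on these same small numbers of mice. Ephx2 followed Ugt2b5 too, with r = 0.933 in controls (rho 0.943) and 0.924 in heme mice (rho 0.867), with exact permutation p = 0.00972 and 0.000953, adjusted p = 0.0467 and 0.0333, and rho's exact permutation p = 0.0167 and 0.00451, adjusted p = 0.0689 and 0.0541. Without the 2 farthest mice these r were 0.785 and 0.90. For Ugt2b36 with Ugt2b5, r was 0.973 in controls (rho 1.0, exact permutation p = 0.00417 and 0.00278, adjusted p = 0.0375 and 0.0443). It was 0.805 in heme mice (rho 0.833, exact permutation p = 0.00942 and 0.00827, adjusted p = 0.0467 and 0.0689) and 0.572 there without the 2 farthest mice, so the relation in heme mice rests partly on those mice. Ugt2b34 also had a positive r with Ugt2b36 and with Ugt2b5 in controls, and that with Ugt2b5 did not pass the adjustment. Its r with Ugt2b36 was 0.958 there (rho 0.943, exact permutation p = 0.00417 and 0.0167, adjusted p = 0.0375 and 0.0689; r of 0.899 without the 2 farthest mice) and 0.66 in heme mice (rho 0.70, exact permutation p = 0.0507 and 0.0433, adjusted p = 0.13 and 0.115; r of 0.598 without them). With Ugt2b5 its r was 0.874 in controls (rho 0.943, exact permutation p = 0.0264 and 0.0167, adjusted p = 0.0905 and 0.0689; r of 0.684 without the 2 farthest mice) and 0.517 in heme mice (rho 0.633, exact permutation p = 0.149 and 0.076, adjusted p = 0.298 and 0.182; r of 0.721 without them). In all, 10 relations in controls and 5 in heme mice had an adjusted p under 0.05 for r. Ephx1 took no part in this for Ugt2b5, with r = -0.457 and 0.0494.

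**Figure D4:**
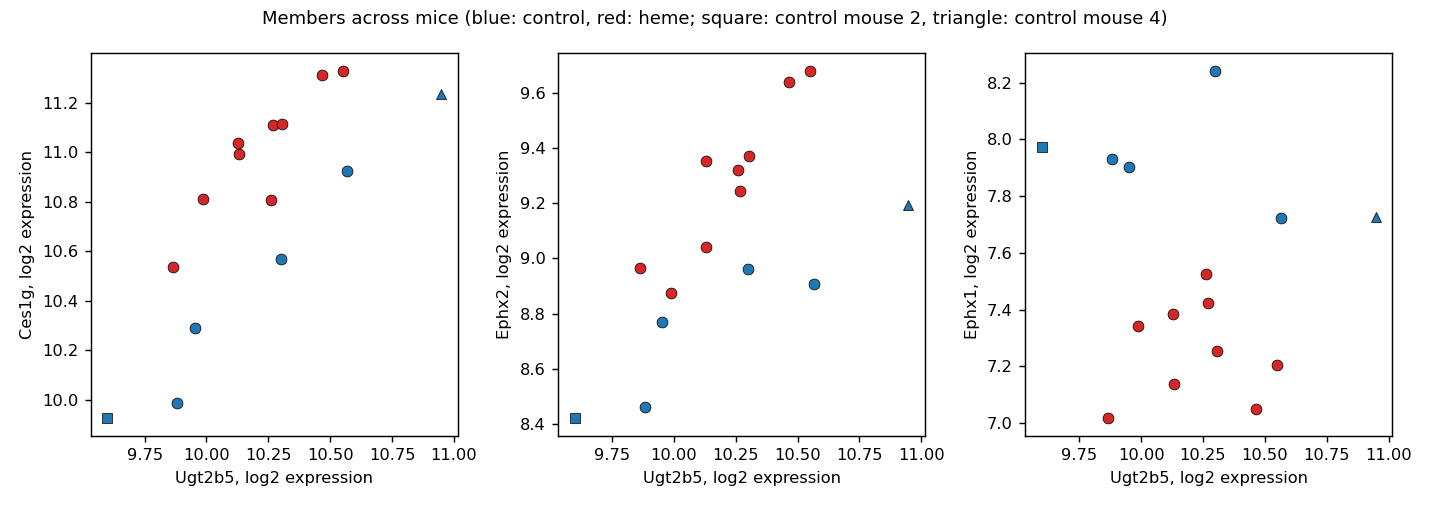
Log2 expression of Ces1g, Ephx2 and Ephx1 against that of Ugt2b5, 1 point per mouse (blue 6 controls, red 9 heme mice, square control mouse 2, triangle control mouse 4). Ces1g and Ephx2 follow Ugt2b5 within each group, and Ephx1 shows no such relation, with r at -0.457 in controls and 0.0494 in heme mice.

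The genes outside the listed members that were most like each member were found from Pearson r of the deviations from the group means over the 15 arrays, as a description. These arrays share their tissue makeup, so the values carry no test. Listed members were left out of this search. Ugt2b5 and Ces1g were more like each other on this measure (0.96) than like any of the genes named for them. Ugt2b5 was most like Mfsd6l and Fabp2, the intestinal fatty acid binding protein (r of 0.94 and 0.94). Ugt2b34 was most like Lrat, which esterifies retinol, and Akr1c19 (0.90 and 0.89). Ugt2b36 was most like Nudt7 and Akr1c19 (0.93 and 0.90). Ces1d was most like Pcdh17 and Rsbn1 (0.92 and 0.88), Ces1g like Pcnx and Cyp4b1 (0.94 and 0.94) and Ces2e like Fas and Ncoa7 (0.92 and 0.92). Ephx1 was most like Serac1 and Krr1 (0.85 and 0.84), Ephx2 like Mfap3l and Pgrmc1 (0.92 and 0.91) and Nr1i2 like Igsf5 and Rit1 (0.86 and 0.84).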

How the data were processed

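Expression was measured in colon scrapings of 15 mice (6 control, 9 heme), 1 Affymetrix array per mouse. The authors deposited log2 expression values per probe set, made with GCRMA 2.22.0 per the submitters' processing notes. Detection calls were not used here. Probe sets with 1 symbol (34958; 932 had several and 9211 were not listed) stood for genes, with symbols updated through gene ID in RefSeq, and a gene was its probe set with the highest mean. Genes, and separately all probe sets, with a signal over 20 (4.32 on the log2 scale) on at least 6 arrays were tested with limma 3.58.1 in R 4.3.3 (lmFit, eBayes), with Benjamini-Hochberg adjustment over all tested and a threshold of 0.05. The fit was also run on simulated data with independent noise for each gene. Those data lack the variation that genes share within a mouse here, so that run does not measure how reliable these calls are. Precision is limited by the number of arrays.

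The members and lists were chosen with earlier results of these data known. Named are all members, all other tested family genes, the 3 largest called changes of each other list and the 2 genes most like each member, while values of single mice and promoters were chosen after their values were seen. Replicate numbers were checked as pairs: 1 of 6 had a correlation of deviations over 0.1, so they were not used as pairs. Promoters came from RefSeq (GRCm38.p6), which held 8 of the 10 listed genes, and were aligned with Biopython 1.88. Alternatives were other filters, scalings, variance settings, covariates, a replicate block and leaving out mice. Control replicate 5 was not analysed here.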

Additional observations from a re-analysis of the deposited data

Results flagged for a closer look

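On the further Nr1i2 probe set, heme mouse 4 had a log2 level of 6.171, set apart from the other heme mice by a gap of 0.543 of the whole heme range, which is more than Dixon's 95% value for 9 samples. The same mouse had the highest heme value, 6.47, on the probe set that stands for Nr1i2. Of 26 groups of mice tested in this way, 1 was set apart, and chance does so in about 1 of 20.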

How the results depend on the processing

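The falls of Ugt2b34 (-0.40 to -0.24) and Ephx1 (-0.74 to -0.47) stayed called in all 29 alternatives, and Ces1d stayed below 0 and uncalled in all 29 (-0.43 to -0.12). The members called higher, 2 in the comparison as reported, numbered 1 with the replicate block (Ces1g at 0.58, adjusted p = 0.106), 1 without control mouse 2 and heme mouse 6 (Ces1g at 0.40, adjusted p = 0.0915), 0 with the smooth muscle covariate, 4 with the distal Hox covariate and 1 to 3 on leaving out 1 mouse. The block changed the call of Ces1g and of no other member, and the numbers are shared only as labels. With the smooth muscle covariate, which differs between the groups itself, 2871 probe sets were higher in place of 4463 and 3226 lower in place of 4658. Ces2e was then called lower (-0.48, adjusted p = 0.0130), and uncalled differences of Ugt2b5 (-0.42), Ugt2b36 (-0.0015) and Nr1i2 (-0.067) changed sign. Other sign changes concerned uncalled differences near 0: Ugt2b5 under quantile normalization (-0.022), without control mouse 2 and heme mouse 6 (-0.10) and on leaving out 1 mouse (-0.11 to 0.16), and Ces2e with the replicate block (0.0099), with the distal Hox covariate (0.024) and on leaving out 1 mouse (-0.19 to 0.010). The cause of these changes was not tested. At a floor of 100 Nr1i2 was not tested. The low signal of Nr1i2 and Ugt2b36 limits what their differences can show.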
